A study of Rattus norvegicus with 15 samples.

Results

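Synovium of rats with adjuvant-induced arthritis (AIA) was compared with synovium of untreated rats, in 10 of the 15 libraries of the series. The AIA group had AIA replicates 5, 13, 18, 19 and 23, and the control group had control replicates 2, 7, 11, 14 and 17, chosen by the names of their columns in the count table. Both groups were wild-type rats (Rattus norvegicus), and the labels give neither strain, sex nor age. Each AIA rat had 100 uL of complete Freund's adjuvant put into the skin of the tail, so the joint was not injected, while control rats had no injection at all, neither of oil nor of saline. The labels do not say how long after the injection, or from which joint, the tissue was taken. The other 5 libraries came from AIA rats given an anti-cANGPTL4 antibody. They are not compared here, but they entered the filter on low counts, the scaling and the estimate of the spread. Each library is taken as 1 rat, and p-values measure the spread between these libraries.

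Synovium is the soft lining of the joint. A surface layer of lining fibroblasts and macrophages secretes the lubricants of the joint fluid, and a sublining of fibroblasts, vessels, nerves, fat and resident immune cells lies beneath it. In the rat adjuvant model, T cells primed against mycobacterial antigen start a polyarthritis in which leukocytes enter the synovium and cartilage and bone are eroded. The comparison asks which transcripts of the synovium differ once the animal has been given adjuvant.

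The libraries held 31172215 to 34084345 counts, so depth differed little between them. Lubricin (Prg4), the defining lubricant of synovial lining, was abundant in all 10 libraries, at 2714 to 5691 CPM in AIA and 5602 to 11205 CPM in control (counts scaled to a common library size with TMM factors), which fits the tissue label. Values of the libraries of a group are given in the order of the replicate numbers above, and a pair x ± y in brackets after a gene is its log2 fold change, AIA over control, with its SE. Skeletal muscle genes stood apart in 1 library of each group. They took 2.30% of the counts of AIA 19 and 1.18% of those of control 2, against at most 0.00935% in the other libraries, and the summed level of the 25 muscle genes in the table ran from 49.4 to 23500 CPM in AIA and from 55.6 to 11900 CPM in control. Myh7, slow muscle myosin, was at 0 in all 10. Of the 20 muscle genes tested, 0 were called by edgeR, by DESeq2 or by limma-voom, and 0 had an unadjusted p under 0.05. On the first principal component AIA 18, 19 and 23 (54.26, 60.57 and 41.11) lay apart from AIA 5 and 13 (-6.88 and 1.51), and the control libraries lay between -38.62 and -23.59.

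Of 16046 genes that passed a filter on low counts, 817 were called higher in AIA (5.09% of those tested) and 553 lower (3.45%), 8.54% in either direction, by edgeR's quasi-likelihood test at an adjusted p under 0.05. The median log2 fold change of all tested genes was -0.0034. Increases were the larger changes. At least 2-fold were 498 of the genes called higher and 158 of those called lower, and at least 4-fold were 227 and 24. A gene very low in control can pass the filter through libraries of adjuvant-injected rats alone, and can then hardly be called lower. Oscar, Cxcr3, Retnlg and Fgf23, below, are of this kind. Counts of genes called lower in lists of low-level genes carry the same limit. No AIA library overlapped a control library in 440 of the genes called higher and 378 of those called lower, where 3.25% and 3.17% of all tested genes had such a gap in the same direction. In bulk tissue a lower transcript level from fewer cells and one from less RNA per cell cannot be told apart, and the same holds for higher levels.

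Among the called genes, the increases had more than 1 pattern over the rats. The genes were called with these same libraries, so the shares below describe the calls and are not a test. AIA 18, 19 and 23 lay above every control library for 97.9%, 98.5% and 96.3% of the genes called higher, and AIA 5 and 13 for 70.5% and 76.4%. All 5 AIA libraries lay above control for 53.9% of the called genes, and AIA 18, 19 and 23 alone did so for 92 genes (11.3%). Decreases were more even, since each AIA library lay below every control library for 83.4% to 97.6% of the genes called lower. The median SD of log2 CPM among genes called higher was 0.477 in AIA and 0.318 in control, and among genes called lower it was 0.261 in AIA and 0.218 in control.

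**Figure D1:**
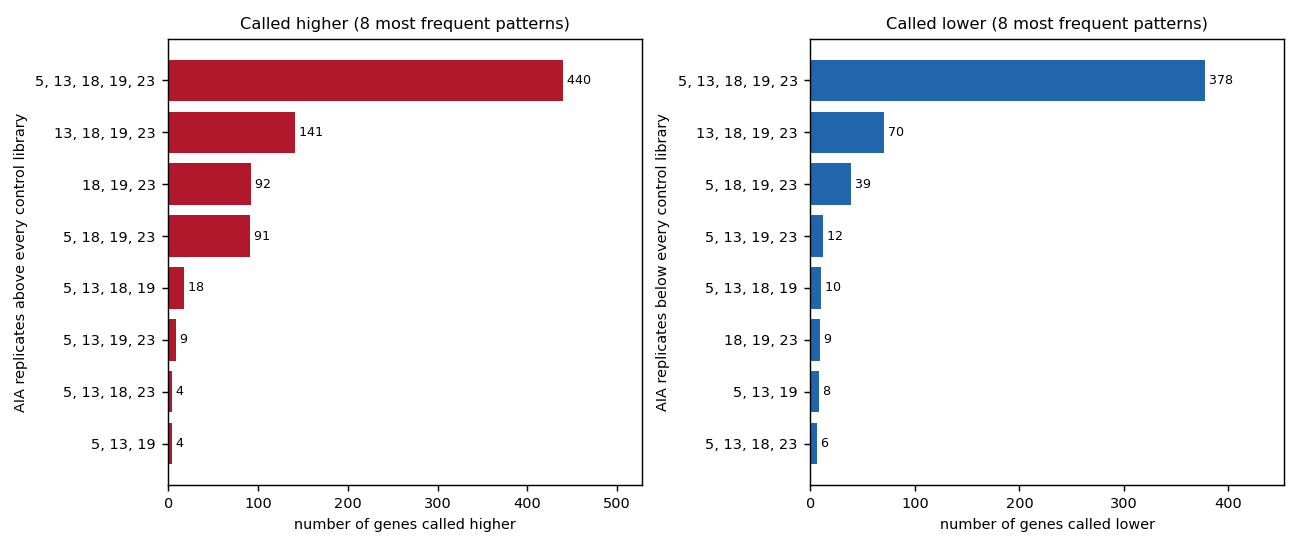
Bars count the genes called higher (left) and lower (right) in AIA by which AIA replicates lay beyond every control library, for the 8 most frequent patterns of each direction. All 5 AIA replicates were above control for 440 genes and below control for 378 genes, and the pattern of replicates 18, 19 and 23 alone held 92 of the genes called higher.

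Leaving out the libraries with muscle transcripts changed the number of calls more than the size of the changes. Without AIA 19 and control 2, 334 genes were called higher and 238 lower, and 329 and 216 of these were among the calls made with all libraries. All 1370 called genes kept their direction, and 1355 stayed within 1.5-fold of their first value. The median absolute log2 fold change of the called genes was 0.881 without both libraries and 0.948 with them. That fit has 4 libraries a group. With all libraries kept and the muscle share as a covariate, 772 genes were called higher and 552 lower, and without AIA 18, a library at the low muscle level, 522 and 393.

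**Figure D2:**
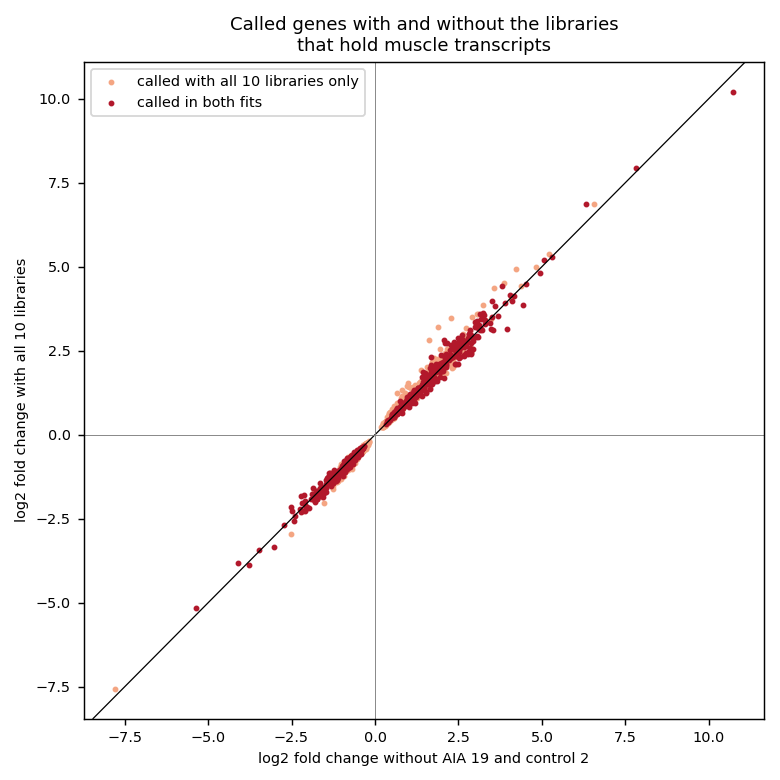
Each point is a gene called in AIA against control, with its log2 fold change over all 10 libraries on the vertical axis and without AIA 19 and control 2 on the horizontal axis. Points lie along the line of equality, with 1355 of 1370 within 1.5-fold of it, and dark points mark the 545 genes called in both fits.

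The increases of lowest p, picked among called genes with no overlap between the groups, included genes of leukocytes and of cytokine signalling. Ubd, a ubiquitin-like modifier induced by interferon-gamma and TNF, had 5.64, 8.65, 7.95, 8.79 and 4.85 CPM in the AIA libraries, against 0.155, 0.177, 0.208, 0 and 0.396 CPM in the control libraries. The lowest AIA library was far above the highest control library, and the log2 fold change was 5.21 ± 0.40 (SE; edgeR adjusted p = 1.25e-05). Il2rg, the common gamma chain of the receptors for interleukins 2, 7 and 15, had 48.4, 51.1, 59.8, 53.3 and 55.8 CPM in the AIA libraries, against 19.6, 22.8, 20.9, 17.4 and 25.4 CPM in the control libraries. Its groups did not overlap (log2 fold change 1.34 ± 0.11, edgeR adjusted p = 1.25e-05). The same held for Plac8, a gene of monocytes and other leukocytes (1.30 ± 0.12), and for the leukocyte GTPase Rac2 (1.57 ± 0.17). Scnn1b, a subunit of the epithelial sodium channel, was at 24.7, 30.5, 31.5, 26.8 and 23.3 CPM in AIA, against 8.60, 13.4, 12.2, 8.79 and 8.22 CPM in control (1.42 ± 0.15). Tmem255a, a membrane protein of little known function, was 7.92-fold higher.

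The decreases of lowest p were likewise picked among called genes with no overlap, so the gaps between the groups come from that choice. Limch1, an actin-associated activator of non-muscle myosin, had 40.3, 41.03, 39.2, 42.4 and 44.8 CPM in the AIA libraries, against 81.7, 67.1, 83.7, 79.5 and 67.9 CPM in the control libraries. The groups stood apart although the log2 fold change was only -0.87 ± 0.088 (edgeR adjusted p = 9.62e-05). Colgalt2, which adds galactose to collagen, was at 25.6, 27.8, 27.9, 15.8 and 21.3 CPM in AIA, against 52.5, 50.6, 58.7, 60.1 and 58.1 CPM in control. Lgi4, a Schwann cell factor required for myelination, fell by 0.94 ± 0.11 on the log2 scale. Olfm1 (-1.20), Cpne7 (-1.0) and Nrip3 (-1.55) also fell. Grin3a, an NMDA receptor subunit, had a log2 fold change of -1.37 ± 0.18, the matrix protein gene Mamdc2 one of -1.48 ± 0.19, and Csmd1, a complement-regulating membrane protein, one of -2.02 ± 0.27. These increases and decreases of lowest p kept their calls with any 1 library left out and in every alternative processing that gave a test per gene. Genes whose call held with any 1 library left out were preferred for printing.

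**Figure D3:**
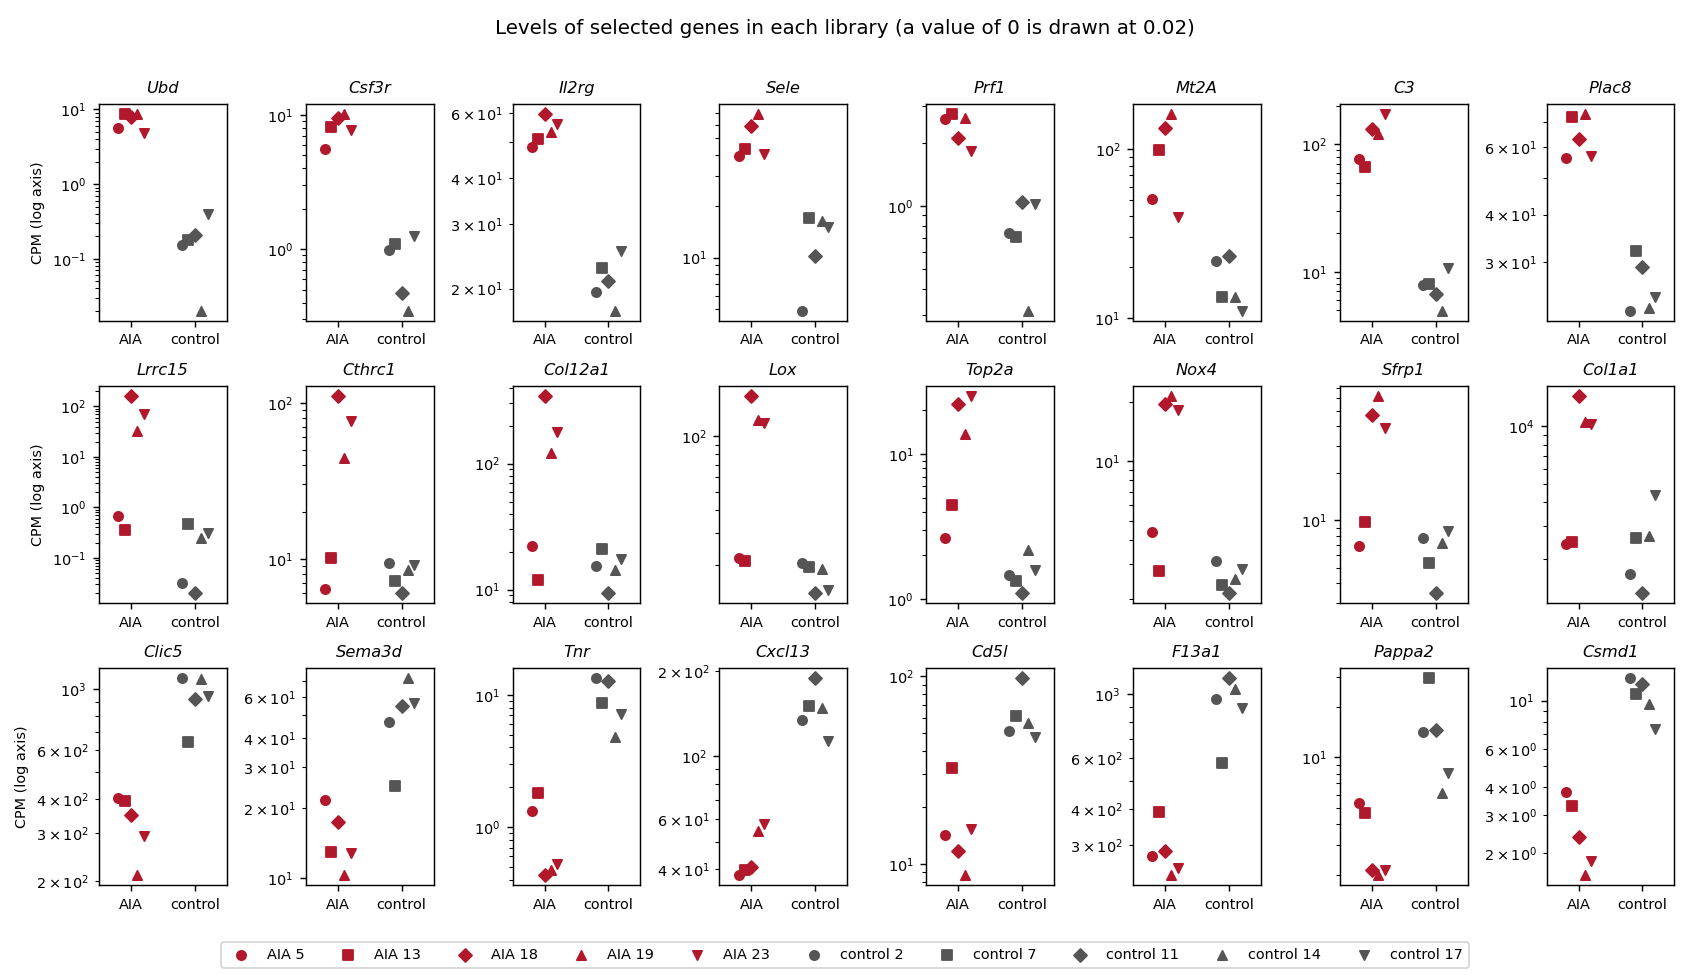
Levels in CPM on log axes of 24 genes in each library, AIA to the left of control, with 1 symbol per replicate. The upper row has genes higher in all 5 AIA libraries, the middle row genes that were high in AIA 18, 19 and 23, and the lower row genes that were lower in all 5.

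Interferon-gamma response genes and the general interferon-stimulated genes differed in what was called. Both interferon families signal through JAK kinases, type I interferon inducing mainly antiviral genes and interferon-gamma inducing also antigen presentation. Of the 28 tested members of the interferon-stimulated list, 0 were called higher and 1 lower, and their median log2 fold change was -0.12. The member called lower was Ifih1, a cytosolic sensor of double-stranded RNA, at 16.7, 17.4, 15.8, 16.9 and 14.7 CPM in AIA, against 21.1, 19.9, 25.1, 20.96 and 21.6 CPM in control (-0.42 ± 0.09, edgeR adjusted p = 0.01). At an unadjusted p under 0.05 the list had 2 higher and 2 lower, and DESeq2 and limma-voom each called 0 higher and 1 lower. Mx1, an antiviral GTPase, had 10.9, 44.8, 18.3, 15.9 and 11.2 CPM in the AIA libraries, against 15.2, 45.7, 17.9, 16.9 and 14.01 CPM in the control libraries. AIA 13 and control 7 were high by a like amount and the other libraries of both groups overlapped. Isg15, a ubiquitin-like antiviral protein, was highest in the same libraries, at 6.15, 18.4, 10.6, 9.52 and 6.07 CPM in AIA and 7.17, 16.7, 9.69, 10.9 and 9.13 CPM in control.

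In contrast to that count, 7 of 24 tested genes of the interferon-gamma response and guanylate-binding proteins were higher and 0 lower, with a median log2 fold change of 0.31. They were Ubd, Ciita, Irf8, Nlrc5, Tap1, Cxcl9 and Cxcl11. Ciita, the master regulator of MHC class II genes, had 13.5, 26.7, 23.3, 23.9 and 32.7 CPM in the AIA libraries, against 11.6, 8.49, 8.05, 6.75 and 11.7 CPM in the control libraries. AIA 5 was just above control, and the other AIA libraries were well above it (1.37 ± 0.29, edgeR adjusted p = 0.00944). Irf8, a transcription factor of monocytes and dendritic cells that interferon-gamma induces, was at 25.98, 39.3, 37.8, 36.3 and 54.01 CPM in AIA, against 21.4, 20.6, 22.9, 16.9 and 22.01 CPM in control (0.90 ± 0.17). Irf1, a transcription factor that interferon-gamma induces early, was not called, at 62.9, 83.6, 66.9, 76.04 and 76.2 CPM in AIA and 54.5, 68.5, 71.1, 53.2 and 60.2 CPM in control (0.25 ± 0.10, edgeR adjusted p = 0.171). The count was 4 to 9 with 1 library left out (4 without AIA 18, AIA 19 or control 2), where brackets, here and below, hold the counts that differ by over 1.5 times from the one given first, and it was 3 without AIA 19 and control 2. Whether the 2 lists differ as lists was not tested.

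Antigen processing genes gave few calls. Of 14 tested genes of the immunoproteasome and peptide loading, 2 were higher (Tap1 and Nlrc5) and 0 lower, and the higher count was 0 to 3 with 1 library left out (0 without AIA 18, AIA 19, control 2 or control 14, 1 without AIA 13, AIA 23, control 11 or control 17), and 0 without both muscle libraries. In the 18 constitutive proteasome subunits edgeR, DESeq2 and limma-voom called 0, and 0 had an unadjusted p under 0.05.

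Many T cell and cytotoxic lymphocyte genes rose. Of 15 tested genes of T cell receptor signalling and co-stimulation, 10 were higher and 0 lower, with a median log2 fold change of 1.71. Lck, the kinase that starts T cell receptor signalling, had 8.09, 9.35, 8.94, 8.51 and 13.8 CPM in the AIA libraries, against 3.35, 4.51, 2.88, 3.44 and 2.88 CPM in the control libraries. AIA 23 was the highest, and no AIA library overlapped control (1.51 ± 0.23, edgeR adjusted p = 0.00125). The adhesion receptor Cd2 was at 1.76, 1.35, 3.31, 2.38 and 5.28 CPM in AIA, against 0.745, 0.383, 0.267, 0.378 and 0.565 CPM in control (2.58 ± 0.36). The adaptor Lat (1.60 ± 0.28) and the co-stimulatory receptor Cd28 (1.71 ± 0.34) also rose. The higher count was 7 to 11 with 1 library left out, and it was 7 without AIA 19 and control 2.

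Of 12 cytotoxic granule genes, 10 were higher, 9 of the list without overlap, and the median log2 fold change was 1.72. Perforin (Prf1), which opens pores in target cells, had 2.60, 2.75, 2.10, 2.63 and 1.84 CPM in the AIA libraries, against 0.745, 0.708, 1.04, 0.315 and 1.02 CPM in the control libraries. All AIA libraries were above all control libraries at these low levels (1.63 ± 0.29, edgeR adjusted p = 0.00296). Granzyme A (Gzma, 2.04 ± 0.38), granzyme M (Gzmm, 1.70 ± 0.35) and the granule cathepsin Ctsw (2.79 ± 0.41) rose as well. Klrk1, the activating receptor NKG2D, was at 1.75 ± 0.37, and its edgeR adjusted p was 0.0655 without AIA 19 and control 2. Without those 2 libraries 7 of the list were higher. The genes are shared by natural killer cells and cytotoxic T cells.

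Some T helper genes were called higher, and the tested genes of regulation were not. Of 10 tested T helper regulators and cytokines, 5 were higher and 0 lower, and the count was 5 in every run with 1 library left out and without both muscle libraries. Tbx21, the T-bet factor of type 1 helper and natural killer cells, had 1.13, 1.38, 1.18, 1.08 and 0.820 CPM in the AIA libraries, against 0.248, 0.236, 0.178, 0.0630 and 0.311 CPM in the control libraries. The groups did not overlap (2.40 ± 0.38, edgeR adjusted p = 0.00169). Cxcr3, the receptor for the interferon-gamma-induced chemokines Cxcl9 and Cxcl11, was at 0.418, 0.480, 0.650, 1.17 and 1.28 CPM in AIA, against 0.124, 0.0295, 0.0297, 0.0315 and 0.113 CPM in control (3.53 ± 0.52). The others called were Stat4, Il12rb1 and Ccr6. Bcl6 and Cxcr5, the most highly expressed tested members of the list, were not called. Of 16 inhibitory receptors and regulatory T cell genes in the table, only 11 passed the filter and were tested. Among these edgeR called 0, DESeq2 0 and limma-voom 1 lower, and at an unadjusted p under 0.05 there were 0 higher and 1 lower.

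B cell and plasma cell genes gave a single call. Of 18 tested, 0 were higher and 1 lower (Fcmr, the receptor for IgM). At an unadjusted p under 0.05 there were 4 higher and 2 lower, DESeq2 called 2 higher and 1 lower and limma-voom 2 higher and 1 lower. Their summed level was 299 to 533 CPM in AIA and 248 to 351 CPM in control, with overlap. Fcmr kept its call in 3 of 10 runs with 1 library left out.

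Some chemokine and cytokine genes of lymphoid tissue rose, and Cxcl13 fell. Of 11 tested, 5 were higher (Ccl19, Ccr7, Tnfsf13b, Il7 and Il7r) and 1 lower. The lower one was Cxcl13, the chemokine that draws B cells, at 38.2, 39.7, 40.6, 54.4 and 57.9 CPM in AIA, against 134, 150.1, 189, 148 and 114 CPM in control. Every control library was far above the highest AIA library (-1.67 ± 0.31, edgeR adjusted p = 0.00431), and the call held in each run with 1 library left out. The higher count was 1 to 6 with 1 library left out (1 without AIA 18, AIA 23, control 11 or control 14, 3 without AIA 19 or control 7), and 2 without AIA 19 and control 2. Ccl22, a chemokine of dendritic cells and macrophages that acts on Ccr4, fell too, at 0.119, 0.128, 0.124, 0.286 and 0.0984 CPM in AIA and 0.621, 0.796, 0.297, 0.725 and 0.961 CPM in control (-2.14 ± 0.39).

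Some monocyte and dendritic cell genes rose, and few genes of resident macrophages were called, in both directions. Of 20 monocyte and dendritic cell genes, 8 were higher and 1 lower. Of 24 tissue macrophage genes, 2 were higher (Adgre1 and Stab1) and 3 lower (Cd5l, Timd4 and Axl). These shares are 8.33% and 12.5%, against 5.09% and 3.45% of all tested genes. The summed level of the 24 was 3170 to 4420 CPM in AIA and 3300 to 5410 CPM in control, with overlap. Ccr2, the chemokine receptor of inflammatory monocytes, had 8.36, 9.54, 15.7, 24.7 and 20.95 CPM in the AIA libraries, against 4.44, 2.01, 1.75, 4.51 and 7.37 CPM in the control libraries. AIA 19 and 23 were the highest, and AIA 5 was 8.36 CPM against 7.37 CPM in control 17 (1.98 ± 0.39, edgeR adjusted p = 0.00592). The integrin Itgax (CD11c) was at 12.9, 13.7, 24.4, 19.8 and 20.7 CPM in AIA, against 6.55, 7.20, 7.61, 7.09 and 6.27 CPM in control. Adgre1, the F4/80 antigen of rodent macrophages, rose by 0.96 ± 0.19 on the log2 scale. Cd5l, a protein secreted by resident macrophages that limits their apoptosis, fell to 14.2, 32.3, 11.7, 8.70 and 15.3 CPM in AIA, against 51.3, 61.4, 98.1, 56.6 and 47.2 CPM in control (-1.94 ± 0.37). F13a1, coagulation factor XIII subunit A and a gene of resident macrophages, was counted with the plasminogen system and serpins, not in the macrophage list. It fell too, at 276, 390.3, 286, 236 and 249 CPM in AIA and 961, 578, 1135, 1038 and 889 CPM in control (-1.68 ± 0.23). The number of macrophage genes called lower was 1 to 6 with 1 library left out (1 without AIA 19, AIA 23, control 2 or control 11, 6 without AIA 13), and 1 without both muscle libraries. The monocyte count without those libraries was 5.

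Some receptors by which these cells sense antibody and microbes were also higher. Of 8 tested Fc receptors, 2 were higher and 1 lower (Fcmr). Fcgr2b, the inhibitory IgG receptor, had 7.29, 10.03, 17.3, 35.1 and 12.99 CPM in the AIA libraries, against 5.16, 3.54, 3.21, 3.12 and 7.54 CPM in the control libraries. AIA 19 was the highest, and AIA 5 lay below control 17 (1.87 ± 0.36, edgeR adjusted p = 0.00535). The activating receptor Fcgr3a was at 1.72 ± 0.30; Fc gamma receptor genes are alike in sequence and may share reads. Of 21 pattern recognition receptors and adaptors, 5 were higher, and 1 without AIA 19 and control 2. Clec4e, the receptor Mincle that binds mycobacterial cord factor, was at 1.25, 1.67, 2.60, 1.65 and 2.16 CPM in AIA, against 0.186, 0.265, 0.208, 0.378 and 0.339 CPM in control (2.74 ± 0.33, edgeR adjusted p = 0.000264). All AIA libraries were well above the highest control library. Myd88, the adaptor of Toll-like and interleukin-1 receptors, was 1.29-fold higher, and its edgeR adjusted p was 0.0659 without both muscle libraries.

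Neutrophil genes had high folds and a wide spread. Of 16 tested, 8 were higher, with a median log2 fold change of 3.28. Csf3r, the receptor of granulocyte colony-stimulating factor, had 5.58, 8.14, 9.56, 10.2 and 7.77 CPM in the AIA libraries, against 0.994, 1.09, 0.475, 0.347 and 1.24 CPM in the control libraries. The AIA libraries lay above control, and AIA 5 was the lowest of them (3.30 ± 0.34, edgeR adjusted p = 9.62e-05). S100a8, a calprotectin subunit, ranged over 19.9, 73.9, 23.2, 54.6 and 10.7 CPM in AIA and 0.280, 9.17, 0.773, 1.32 and 3.64 CPM in control. AIA 13 and 19 were the highest and control 7 lay just below AIA 23 (3.58 ± 0.85, edgeR adjusted p = 0.0167). S100a9 went with it (3.60 ± 0.88); its call was lost without control 14, and without both muscle libraries (edgeR adjusted p = 0.0689). Mmp8, neutrophil collagenase, was at 3.85 ± 0.89, and Retnlg, a resistin-like gene of rodent neutrophils, at 4.42 ± 0.82. The count was 5 to 11 with 1 library left out (5 without control 14), and 3 without AIA 19 and control 2, where the edgeR adjusted p was 0.068 for S100a8 and 0.0659 for Mmp8.

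Genes of red cell precursors moved with them. The summed level of the 18 erythroid genes in the table was 81.6 to 225 CPM in AIA and 43.7 to 66.4 CPM in control, highest in AIA 13 and 19, the libraries that were also highest in neutrophil genes (484 and 330 CPM; all AIA libraries 129 to 484 CPM, control 73.6 to 156 CPM). Alas2, the first enzyme of haem synthesis in red cells, had 42.2, 124, 30.1, 64.97 and 40.5 CPM in the AIA libraries, against 14.4, 11.9, 10.2, 15.3 and 13.1 CPM in the control libraries. AIA and control libraries were fully apart (2.21 ± 0.36, edgeR adjusted p = 0.00213). Slc4a1, the anion exchanger of red cells, was at 2.62 ± 0.58, with an edgeR adjusted p of 0.0632 without both muscle libraries. These were the 2 erythroid genes called, of 16 tested, a count of 2 to 5 with 1 library left out (5 without control 7), and no member of either list was at 0 in all 10 libraries. The part of blood or marrow cells in the neutrophil result was not tested.

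A ligand, an antagonist and some receptors of the interleukin-1 family rose. Of 12 genes of the interleukin-1 family, 4 were higher in this fit, in every run with 1 library left out and without both muscle libraries. Il1rn, the secreted antagonist of the interleukin-1 receptor, had 3.94, 6.18, 6.31, 7.05 and 6.13 CPM in the AIA libraries, against 1.09, 1.18, 0.624, 0.820 and 1.24 CPM in the control libraries. AIA 5 was the lowest AIA library and still well above control (2.57 ± 0.28, edgeR adjusted p = 0.000122). Il1b, the main agonist, was at 1.88, 3.17, 4.18, 7.05 and 5.44 CPM in AIA, against 0.870, 1.80, 0.773, 0.410 and 1.16 CPM in control (2.11 ± 0.39). The signalling receptor Il1r1 (0.54 ± 0.12) and Il18rap, the accessory chain of the interleukin-18 receptor (2.51 ± 0.50), rose as well.

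Of 14 interleukin-6 family genes, 3 were higher, each without overlap. Il6st, the gp130 chain shared by the family, had 1526, 1146, 1445, 1411 and 1225 CPM in the AIA libraries, against 871, 1016, 999, 872 and 876 CPM in the control libraries. The difference was small and even (0.54 ± 0.11, edgeR adjusted p = 0.00629). Osmr, the oncostatin M receptor, rose by 0.65 ± 0.14 and Ebi3, a subunit of interleukins 27 and 35, by 2.09 ± 0.40. Without AIA 19 and control 2 the edgeR adjusted p was 0.0525 for Il6st and 0.0556 for Osmr. Among the colony-stimulating factors and receptors (12 tested) 3 were higher and 1 lower (Csf1), and the lower count was 0 to 1 with 1 library left out (0 without AIA 13, AIA 18, AIA 19, AIA 23, control 2, control 7, control 11 or control 14) and 0 without both muscle libraries. Csf2rb, the shared signalling chain of the receptors for GM-CSF, interleukin 3 and interleukin 5, was at 196, 258, 345, 284 and 278 CPM in AIA, against 93.4, 158, 115, 109 and 102 CPM in control (1.24 ± 0.15, edgeR adjusted p = 0.000321). Jak3, the kinase bound to the common gamma chain, had 35.9, 27.4, 39.03, 40.2 and 33.8 CPM in the AIA libraries, against 15.9, 20.6, 16.2, 12.6 and 18.2 CPM in the control libraries. The groups stood apart (1.08 ± 0.13). It was 1 of 3 genes called higher among 22 JAK, STAT and SOCS genes, with Stat4 and Socs3.

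Some TNF family and NF-kappaB genes were called. Of 22 TNF superfamily genes, 6 were higher and 1 lower (Tnfsf18); the higher count was 4 to 8 with 1 library left out, and 2 without both muscle libraries. Tnfrsf14, the herpesvirus entry mediator on lymphocytes, was at 1.25, 1.22, 2.85, 3.30 and 4.30 CPM in AIA and 0.590, 0.472, 0.238, 0.0630 and 0.706 CPM in control (2.62 ± 0.54, edgeR adjusted p = 0.00744). The call of Tnfsf18 was kept in 8 of 10 runs with 1 library left out. Of 25 NF-kappaB subunits and inhibitors, 5 were higher (Nfkb2, Relb, Nfkbiz, Bcl3 and Birc3), and the count was 2 to 6 with 1 library left out (2 without AIA 18, AIA 19, control 2 or control 14, 3 without AIA 23 or control 17), and 0 without AIA 19 and control 2.

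Several genes of secreted defence proteins rose. Of 11 antimicrobial and secretory defence genes, 7 were higher, with a median log2 fold change of 2.13. Lcn2, lipocalin-2, which binds bacterial siderophores, had 27.9, 48.9, 45.6, 84.1 and 35.7 CPM in the AIA libraries, against 8.45, 14.7, 12.2, 12.9 and 9.78 CPM in the control libraries. AIA 19 was the highest and all AIA libraries exceeded control (2.06 ± 0.25, edgeR adjusted p = 0.000269). Slpi, a leukocyte protease inhibitor, was at 3.14, 8.10, 11.5, 15.5 and 23.9 CPM in AIA, against 2.02, 1.77, 1.84, 2.36 and 1.98 CPM in control (2.64 ± 0.38). Chi3l1, the chitinase-like glycoprotein YKL-40 of inflamed joints, was at 76.8, 178, 269, 183 and 355 CPM in AIA, against 72.7, 34.3, 29.2, 26.4 and 38.3 CPM in control. In both genes AIA 5 was the lowest AIA library and AIA 23 the highest. Serpina3n, a protease inhibitor of the acute phase in rodents, was 5.69-fold higher. Without both muscle libraries 4 of the list were higher.

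Several complement genes rose, some of the alternative pathway among them. Of 23 complement and contact system genes, 12 were higher and 1 lower (Cd55, a membrane inhibitor), and 9 were higher without AIA 19 and control 2. C3, the component on which all complement pathways meet, had 76.4, 66.6, 133, 122 and 174 CPM in the AIA libraries, against 7.83, 8.05, 6.63, 4.92 and 10.6 CPM in the control libraries. The groups were far apart in each library (15.02-fold, log2 3.91 ± 0.35, edgeR adjusted p = 3.66e-05). Factor B (Cfb), its partner in the alternative pathway, was at 104, 122, 152, 331 and 169 CPM in AIA, against 49.4, 40.7, 61.1, 45.8 and 47.1 CPM in control. Properdin (Cfp, 1.14 ± 0.15) and factor D (Cfd, 0.92 ± 0.21), which complete that pathway, rose too. Cfd is also the adipocyte protein adipsin, and it was the only gene called higher of 21 adipocyte genes, whose summed level was 14300 to 43200 CPM in AIA and 19300 to 28400 CPM in control. Clusterin (Clu), an inhibitor of the terminal complex, rose by 0.85 ± 0.15 on the log2 scale. The kininogen gene Kng2 was at 2.15, 7.53, 15.9, 12.6 and 42.3 CPM in AIA, against 0.621, 0.708, 0.832, 0.883 and 0.537 CPM in control; it is nearly identical to Kng1, and C4a to C4b, so the split of reads between them is uncertain.

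The metallothionein genes Mt1 and Mt2A rose. Metallothioneins are small proteins that bind zinc and copper, and their genes are switched on by the zinc-sensing factor MTF1 at metal response elements. Mt2A had 50.5, 98.6, 134, 163 and 39.7 CPM in the AIA libraries, against 21.7, 13.3, 23.3, 13.3 and 10.99 CPM in the control libraries. AIA 23 and 5 were the lowest of the AIA group and still above control (2.55 ± 0.37, edgeR adjusted p = 0.000962). Mt1 was at 12.5, 20.4, 42.3, 31.7 and 19.02 CPM in AIA, against 8.91, 5.90, 6.51, 4.95 and 4.61 CPM in control (2.03 ± 0.29). They were the only genes called higher of 18 glucocorticoid response genes, 0 of which were lower. Slc39a14, the zinc importer ZIP14 of inflamed tissue, was at 70.9, 78.2, 145, 118 and 83.3 CPM in AIA and 64.3, 38.4, 40.4, 41.99 and 38.9 CPM in control (1.15 ± 0.19). Slc11a1, the metal transporter NRAMP1 of phagosomes, rose by 1.65 ± 0.24. In the list of stromal carriers and channels, 4 of 21 were higher and 4 lower, and without both muscle libraries 3 higher and 2 lower. The lower count was 1 to 5 with 1 library left out (1 without AIA 19, AIA 23 or control 17, 2 without control 7 or control 11).

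The promoters of both metallothionein genes are shown because their metal response elements are dense and lie close to the start. The search used TGCACNC and TGCGCNC on both strands, and matches, in capitals, do not overlap. In the 250 bases upstream of the RefSeq starts (GRCr8, minus strand, written in the sense of the gene), Mt1 (chr19:10832976-10833225) holds 6 matches and Mt2A (chr19:10838709-10838958) holds 4. At least 1 match occurs in 20.6% of 33365 promoters of that length, at least 4 in 0.264% and at least 6 in 0.027%. These counts describe letters and say nothing of binding in this tissue.
Mt1: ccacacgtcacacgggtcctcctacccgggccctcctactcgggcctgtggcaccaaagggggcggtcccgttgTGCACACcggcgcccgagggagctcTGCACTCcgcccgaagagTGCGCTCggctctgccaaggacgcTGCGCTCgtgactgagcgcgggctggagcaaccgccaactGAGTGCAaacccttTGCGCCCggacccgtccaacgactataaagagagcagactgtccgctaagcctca
Mt2A: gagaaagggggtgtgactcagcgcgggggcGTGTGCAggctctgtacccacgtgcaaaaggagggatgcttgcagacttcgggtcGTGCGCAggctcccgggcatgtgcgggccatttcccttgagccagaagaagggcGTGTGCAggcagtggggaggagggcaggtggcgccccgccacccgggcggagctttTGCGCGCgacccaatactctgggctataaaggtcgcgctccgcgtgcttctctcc

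Some genes linked to oxidants and nitric oxide rose. Of 18 genes of the NADPH oxidases and nitric oxide, 5 were higher (Rac2, Nox4, Duox1, Arg1 and Sod2). The oxidases among them were Nox4 and Duox1. Nox4, an oxidase of fibroblasts, had 4.36, 2.75, 19.7, 21.5 and 18.3 CPM in the AIA libraries, against 3.11, 2.36, 2.14, 2.52 and 2.83 CPM in the control libraries. AIA 18, 19 and 23 were high, and AIA 5 and 13 lay near control (2.36 ± 0.45, edgeR adjusted p = 0.00449). Duox1, which makes hydrogen peroxide at cell surfaces, was above every control library in all 5 AIA libraries, at 1.52, 2.11, 5.60, 11.2 and 3.21 CPM in AIA and 0.404, 0.619, 0.357, 0.567 and 1.41 CPM in control. Without both muscle libraries 3 of the list were higher.

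Some endothelial genes that capture leukocytes rose. Of 20 genes of endothelial activation and adhesion, 7 were higher and 0 lower. E-selectin (Sele), made by endothelium under cytokines, had 39.5, 43.5, 59.1, 69.7 and 40.5 CPM in the AIA libraries, against 4.88, 17.05, 10.2, 16.3 and 15.2 CPM in the control libraries. All AIA libraries lay well above control (1.99 ± 0.28, edgeR adjusted p = 0.000841). P-selectin (Selp) was at 97.7, 122, 245, 186 and 121 CPM in AIA, against 27.5, 49.6, 46.4, 44.4 and 34.4 CPM in control. Ackr1, the chemokine-carrying receptor of venules, rose by 1.39 ± 0.17 on the log2 scale. On the leukocyte side, the integrin Itgb7 rose by 1.49 ± 0.26.

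Of genes of vessel growth 4.76% were called higher and 9.52% lower, against 5.09% and 3.45% of all tested genes. Of 21 genes of VEGF and angiopoietin signalling, 1 was higher (Pdgfrb) and 2 were lower, and without both muscle libraries 0 higher and 2 lower. That 1 higher call became 0 to 3 with 1 library left out (0 without AIA 18, AIA 19, AIA 23 or control 2, 3 without AIA 5 or AIA 13). Nrp2, a co-receptor for VEGF-C and semaphorins, had 193, 178, 211, 156 and 219.7 CPM in the AIA libraries, against 335, 281, 313, 331 and 289 CPM in the control libraries. The groups were separate (-0.69 ± 0.10, edgeR adjusted p = 0.00125). Esm1, a gene of endothelial tip cells, was at 4.51, 2.21, 1.45, 3.33 and 2.20 CPM in AIA and 4.94, 3.86, 6.51, 8.57 and 8.82 CPM in control (-1.25 ± 0.29). In 16 pericyte and smooth muscle genes edgeR called 0, DESeq2 0 and limma-voom 1 lower, and at an unadjusted p under 0.05 there were 0 higher and 1 lower.

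**Figure D4:**
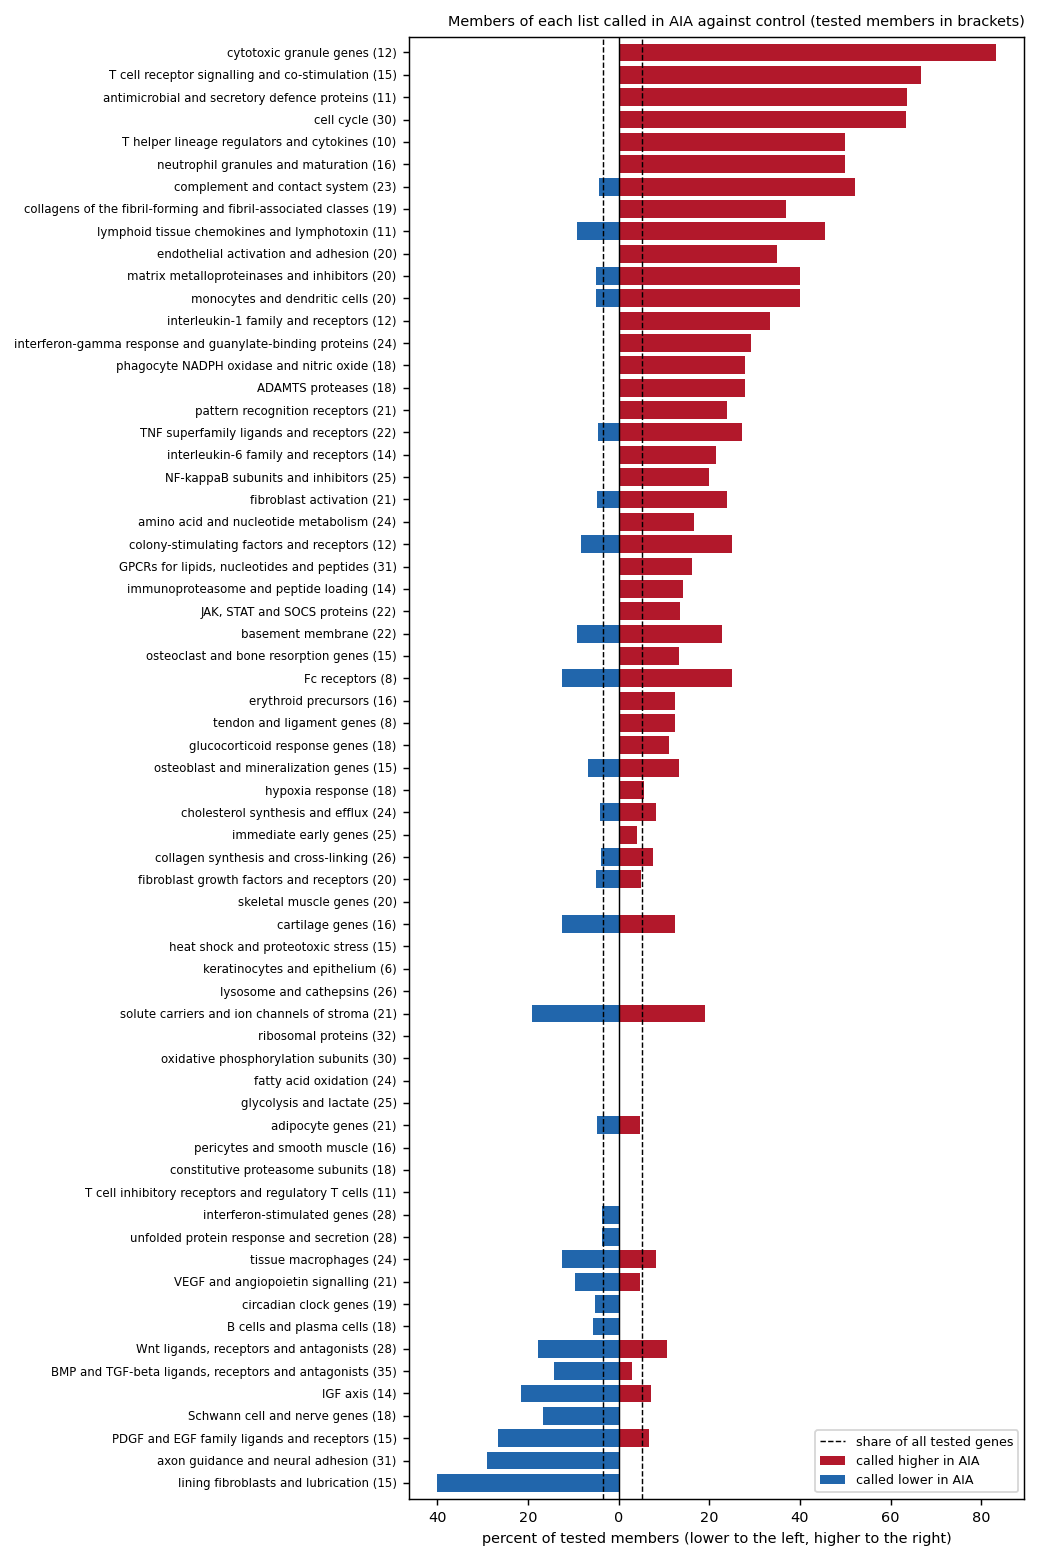
Bars give the percent of tested members of each gene list called higher (to the right) or lower (to the left) in AIA, and dashed lines mark the shares of all tested genes, 5.09% higher and 3.45% lower. Lists of cytotoxic, T cell, defence and cell cycle genes lie at the top, and lists of lining fibroblasts, axon guidance, and PDGF and EGF family genes at the bottom.

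Some genes of the synovial lining fell. Of 15 tested members, 0 were higher and 6 lower, with a median log2 fold change of -0.55, and 6 were lower without AIA 19 and control 2. Their summed level was 4580 to 8830 CPM in AIA and 9970 to 16800 CPM in control. Clic5, an intracellular chloride channel protein that marks lining fibroblasts, had 404, 392, 350.3, 211 and 294 CPM in the AIA libraries, against 1102, 644, 926, 1096 and 950.3 CPM in the control libraries. AIA 19 was the lowest and no library overlapped (-1.52 ± 0.22, edgeR adjusted p = 0.000953). Prg4 was at 4724, 5691, 5314, 2714 and 4401 CPM in AIA, against 10813, 6912, 11205, 8928 and 5602 CPM in control, where AIA 13 lay just above control 17 (-0.93 ± 0.22, edgeR adjusted p = 0.017, and 0.0964 without both muscle libraries). The epidermal growth factor receptor ligand Hbegf (-1.29 ± 0.22) and the secreted protease Htra4 (-1.01 ± 0.23) fell as well.

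Many fibroblast activation and collagen genes were high in 3 of the 5 AIA rats. Of 21 activation genes, 5 were higher and 1 lower, and of 19 fibrillar and associated collagens, 7 were higher and 0 lower. The count of activation genes called higher was 3 to 6 with 1 library left out (3 without AIA 18, control 2 or control 14), and 3 without both muscle libraries. List scores (the average of log2 CPM over the members, with the control mean set to 0) were -0.088, -0.45, 1.37, 0.73 and 0.85 for the collagens in AIA 5, 13, 18, 19 and 23, against -0.14, 0.44, -0.61, -0.20 and 0.52 in control. The scores of AIA 5 and 13 lay within the control range. Cthrc1, a secreted protein of matrix-producing fibroblasts, had 6.45, 10.2, 111, 44.6 and 76.3 CPM in the AIA libraries, against 9.41, 7.26, 6.03, 8.45 and 9.10 CPM in the control libraries. AIA 18, 19 and 23 were high, and AIA 5 and 13 lay nearer to control (2.63 ± 0.57, edgeR adjusted p = 0.01). Lrrc15, a membrane protein of activated fibroblasts, was at 0.687, 0.352, 163, 32.4 and 71.2 CPM in AIA, against 0.0311, 0.472, 0, 0.252 and 0.311 CPM in control (7.93 ± 1.42, edgeR adjusted p = 0.00324; limma-voom adjusted p = 0.263, not called). It was nearly undetected in AIA 5 and 13, as in control, and high in the others. Adam12 was above control in all 5, at 32.4, 38.7, 98.98, 49.4 and 52.2 CPM in AIA and 18.1, 20.3, 4.43, 13.6 and 16.95 CPM in control.

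Collagens and an enzyme that cross-links them were high in the same 3 libraries. Col12a1, a fibril-associated collagen, had 22.3, 11.9, 345, 122 and 177 CPM in the AIA libraries, against 15.3, 21.1, 9.39, 14.2 and 17.6 CPM in the control libraries. AIA 18 was the highest, and AIA 5 and 13 did not stand apart from control (3.12 ± 0.68, edgeR adjusted p = 0.0102). Col1a1, a chain of type I collagen, was at 2397, 2467, 14526, 10495 and 10341 CPM in AIA and 1664, 2585, 1321, 2636 and 4370.5 CPM in control (1.68 ± 0.46, edgeR adjusted p = 0.0326), a call kept in 3 of 10 runs with 1 library left out and lost without AIA 18, AIA 19, AIA 23, control 2, control 7, control 11 or control 14. Its edgeR adjusted p was 0.162 without both muscle libraries. Lox, which cross-links collagen, was at 21.9, 21.1, 166, 122 and 117 CPM in AIA and 20.7, 19.7, 14.1, 18.98 and 14.7 CPM in control. The proteoglycan lumican (Lum) was 5.39-fold higher, with an edgeR adjusted p of 0.0141, and 0.0546 without both muscle libraries. Col5a3, a minor fibrillar chain, was higher in all 5 AIA libraries (0.90 ± 0.17). The collagen count was 2 to 9 with 1 library left out (2 without AIA 18, AIA 23 or control 11, 3 without AIA 19, control 2, control 7 or control 14), and 3 without both muscle libraries.

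Of 8 tendon and ligament genes tested, 1 was higher (Thbs4) and 0 lower. The higher count was 0 to 3 with 1 library left out (0 without AIA 18, AIA 23 or any control library, 3 without AIA 5 or AIA 13). The summed level of the 11 tendon and ligament genes in the table was 572 to 2450 CPM in AIA and 677 to 1600 CPM in control. AIA 18, 19 and 23 were the highest of the AIA group, but AIA 19 (1206 CPM) lay below control 17 (1600 CPM). Thbs4, a thrombospondin of tendon, was at 24.5, 35.1, 344, 83.4 and 153 CPM in AIA and 32.1, 32.7, 26.7, 32.8 and 34.8 CPM in control (2.01 ± 0.53, edgeR adjusted p = 0.028), a call lost without AIA 18, AIA 23, control 2, control 7, control 11, control 14 or control 17, and at 0.0749 without both muscle libraries. Aggrecan (Acan), the main proteoglycan of cartilage, was at 0.269, 0.0961, 116, 21.4 and 10.3 CPM in AIA and 0.0932, 2.21, 0.0594, 0.0630 and 1.05 CPM in control, high in AIA 18, 19 and 23 (5.39 ± 1.42, edgeR adjusted p = 0.0278), a call lost without AIA 18, control 2, control 11, control 14 or control 17, and at 0.0873 without both muscle libraries. Of 16 cartilage genes tested, 2 were higher (Acan and Col11a1) and 2 lower (Sox5 and Ucma), with a median log2 fold change of -0.14. Limma-voom called 0 higher and 2 lower, and without both muscle libraries 0 were higher and 1 lower. The higher count was 0 to 3 with 1 library left out (0 without AIA 18, control 2, control 11 or control 14, 1 without AIA 23 or control 17). Summed cartilage genes were 470 to 956 CPM in AIA and 585 to 888 CPM in control, and Matn1, a member of the list, was at 0 in all 10 libraries. The part of tendon tissue in the matrix result was not tested.

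Fap, a surface protease used as a marker of activated synovial fibroblasts, moved the other way. It had 199.7, 229, 211, 148 and 233 CPM in the AIA libraries, against 367, 262, 420.3, 400.5 and 341 CPM in the control libraries. AIA was below control in all libraries (-0.81 ± 0.17, edgeR adjusted p = 0.00904), and the call was kept with any 1 library left out.

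Several basement membrane genes rose. Of 22 basement membrane genes, 5 were higher and 2 lower. Lamb1, a laminin chain, had 198, 226, 223, 277 and 236 CPM in the AIA libraries, against 143, 155, 106, 152 and 155 CPM in the control libraries. No overlap was seen (0.70 ± 0.12, edgeR adjusted p = 0.00224). Col18a1, whose fragment is endostatin, was at 345, 304, 789.8, 592 and 586 CPM in AIA, against 203, 263, 218, 218 and 216 CPM in control (1.23 ± 0.20), and Col15a1 rose by 1.04 ± 0.21. In collagen synthesis and cross-linking 2 of 26 were higher (Lox and Loxl1) and 1 lower (Colgalt2), and the higher count was 2 to 8 with 1 library left out (6 without AIA 13, 8 without AIA 5). The shares of that list, 7.69% higher and 3.85% lower, are near the 5.09% and 3.45% of all tested genes. Without both muscle libraries 1 higher and 1 lower were called in that list, and 4 higher and 0 lower in the basement membrane list, whose lower count was 1 to 3 with 1 library left out (1 without AIA 19).

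Several metalloproteinases rose, and of their inhibitors 1 rose and 1 fell. Of 20 metalloproteinases and inhibitors, 8 were higher, 7 of them proteases and 1 the inhibitor Timp1, and 1 was lower. Mmp2, gelatinase A, had 529, 696, 1625, 1152 and 1325 CPM in the AIA libraries, against 391, 456, 379, 428 and 458 CPM in the control libraries. All AIA libraries exceeded control, and AIA 18, 19 and 23 the most (1.34 ± 0.24, edgeR adjusted p = 0.00311). Mmp14, the membrane protease that activates it, was at 0.90 ± 0.20, with AIA 5 inside the control range and an edgeR adjusted p of 0.0504 without both muscle libraries. Reck, a membrane-anchored inhibitor of both, was at 45.4, 42.8, 52.3, 45.2 and 42.2 CPM in AIA, against 66.5, 61.6, 72.6, 76.6 and 89.9 CPM in control (-0.69 ± 0.11). Timp1, a secreted inhibitor of metalloproteinases, was at 32.1, 64.1, 111, 104 and 96.2 CPM in AIA, against 43.01, 30.7, 50.8, 36.8 and 33.1 CPM in control. AIA 5 lay within the control range, and the other AIA libraries lay above it (1.06 ± 0.27, edgeR adjusted p = 0.0242), a call lost without AIA 18, AIA 19, AIA 23, control 7, control 14 or control 17, and at 0.0946 without both muscle libraries. Of 18 ADAMTS proteases, 5 were higher and 0 lower, with a median log2 fold change of 0.73. Adamts7, which cleaves cartilage oligomeric matrix protein, was at 26.1, 26.3, 43.8, 26.02 and 38.5 CPM in AIA, against 14.9, 15.99, 11.1, 15.4 and 17.4 CPM in control, and Adamts16 rose by 1.36 ± 0.26. Without both muscle libraries 3 metalloproteinase and 2 ADAMTS genes were higher. The metalloproteinase count was 4 to 8 with 1 library left out (4 without AIA 18 or control 14, 5 without AIA 23 or control 17).

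Of 35 BMP and TGF-beta genes, 1 was higher (Ltbp2, 1.03 ± 0.23) and 5 were lower, with 5 lower without both muscle libraries. Bmp6, a ligand, had 14.2, 14.6, 13.5, 11.5 and 13.2 CPM in the AIA libraries, against 26.2, 27.7, 27.6, 22.5 and 18.8 CPM in the control libraries. AIA and control did not overlap (-0.87 ± 0.12, edgeR adjusted p = 0.000738). Grem1, a secreted BMP antagonist, was at 2.33, 0.705, 0.248, 1.59 and 1.48 CPM in AIA, against 6.96, 2.68, 6.60, 6.81 and 6.61 CPM in control (-2.22 ± 0.47), and the antagonist Chrdl1 fell by 0.89 ± 0.19.

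Wnt antagonists did not move as 1 group. Of 28 Wnt genes, 3 were higher and 5 lower. The higher count was 2 to 5 with 1 library left out (5 without AIA 5) and the lower one 3 to 4 with 1 library left out (3 without AIA 19, control 2, control 7, control 11 or control 14), and they were 2 and 2 without both muscle libraries. Sfrp4, a secreted frizzled-related antagonist, had 90.3, 144, 279.6, 670.1 and 248 CPM in the AIA libraries, against 38.3, 28.3, 27.2, 47.9 and 73.2 CPM in the control libraries. All AIA libraries exceeded control and AIA 19 was the highest (2.74 ± 0.44, edgeR adjusted p = 0.00202). Sfrp1, of the same family, was high in AIA 18, 19 and 23, at 6.90, 9.80, 46.9, 62.4 and 38.9 CPM in AIA and 7.70, 5.34, 3.45, 7.22 and 8.56 CPM in control. Frzb, the family member best known from joint cartilage, fell, at 13.02, 19.1, 9.72, 10.8 and 13.97 CPM in AIA and 19.4, 32.1, 17.2, 35.02 and 26.8 CPM in control (-0.97 ± 0.20).

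In the IGF axis 1 of 14 was higher and 3 were lower, against 0 higher and 1 lower without both muscle libraries. Higher calls were 0 to 2 with 1 library left out (0 without AIA 23, control 2, control 11 or control 17, 2 without AIA 5 or AIA 13), and lower ones 2 to 4 with 1 library left out. Pappa2, a protease that frees IGF from its binding proteins, had 5.37, 4.64, 2.14, 1.999 and 2.13 CPM in the AIA libraries, against 14.2, 29.6, 14.5, 6.18 and 8.02 CPM in the control libraries. AIA 18, 19 and 23 were the lowest and no library overlapped (-2.15 ± 0.44, edgeR adjusted p = 0.00744). Stc2, an inhibitor of the related protease PAPP-A, fell as well (-1.42 ± 0.33; edgeR adjusted p = 0.0154, and 0.0726 without both muscle libraries). Of 15 PDGF and EGF family genes, 1 was higher and 4 lower, and 3 were lower without both muscle libraries. Egfr, the receptor of Hbegf, was at 151, 145, 129, 68.5 and 107 CPM in AIA, against 264, 207, 254, 194 and 189 CPM in control (-0.88 ± 0.18). Pdgfd (-0.93 ± 0.20) and Fgf1 (-0.96 ± 0.17), a pair of mesenchymal growth factors, fell too. Fgf1 was the 1 gene called lower of 20 fibroblast growth factors and receptors, and Fgf23, the phosphate-regulating hormone of bone, the 1 called higher. These shares, 5% in each direction, are near those of all tested genes, 5.09% higher and 3.45% lower. Fgf23 was at 0, 0.897, 2.51, 2.09 and 0.164 CPM in AIA, against 0, 0, 0, 0 and 0.0283 CPM in control (edgeR adjusted p = 0.00483). AIA 5 was at 0, as were 4 of the 5 control libraries. Calls of higher members were 1 to 2 with 1 library left out (2 without AIA 5 or AIA 13) and of lower ones 1 to 2 with 1 library left out (2 without AIA 5).

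Some axon guidance genes were lower. Such genes steer nerve fibres and are also made by fibroblasts and vessels. Of 31 tested, 0 were higher and 9 lower, with a median log2 fold change of -0.18, the lower count was 9 in every run with 1 library left out, and 8 were lower without AIA 19 and control 2. Sema3d, a secreted semaphorin, had 21.6, 12.97, 17.4, 10.3 and 12.9 CPM in the AIA libraries, against 46.7, 24.9, 54.8, 72.3 and 56.7 CPM in the control libraries. AIA lay below control throughout (-1.76 ± 0.26, edgeR adjusted p = 0.00114). Sema5a, also a member of the lining list, was at 169.9, 134, 147, 73.4 and 121 CPM in AIA, against 312, 241, 296, 272 and 262 CPM in control. Ntn1, netrin-1, was at 289.7, 312, 234, 141 and 214 CPM in AIA, against 447, 465, 504, 436 and 385 CPM in control (-0.91 ± 0.18). Sema3a, which repels sympathetic and sensory fibres, fell by 1.15 ± 0.18 and Ntn4 by 1.09 ± 0.21. Tnr, tenascin-R of neural matrix, was at 1.31, 1.79, 0.433, 0.476 and 0.525 CPM in AIA, against 13.4, 8.67, 12.6, 4.82 and 7.15 CPM in control (-3.35 ± 0.49).

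Of the Schwann cell genes 16.7% were called lower, against 3.45% of all tested genes. Of 18 tested, 0 were higher and 3 lower (Pmp22 among them), the lower count was 1 to 7 with 1 library left out (1 without AIA 13, AIA 19, AIA 23, control 2, control 7 or control 11, 7 without AIA 5), and it was 0 without both muscle libraries. Their summed level was 818 to 1270 CPM in AIA and 1230 to 1510 CPM in control. Pmp22, a myelin protein also made by fibroblasts, was at 247, 227, 282, 232 and 284 CPM in AIA, against 366, 285, 373, 386 and 348 CPM in control (-0.47 ± 0.11, edgeR adjusted p = 0.0153, and 0.0915 without both muscle libraries). The part of nerve content in the axon guidance result was not tested. A receptor and a channel linked to pain signals rose. Tacr1, the receptor of substance P, had 27.5, 18.3, 41.4, 35.96 and 28.3 CPM in the AIA libraries, against 10.4, 15.1, 12.2, 8.04 and 11.6 CPM in the control libraries. Again the groups stood apart (1.40 ± 0.23, edgeR adjusted p = 0.00208). Trpv4, a calcium channel that responds to stretch and swelling, was at 32.6, 46.1, 45.3, 42.5 and 36.7 CPM in AIA, against 22.6, 24.5, 24.2, 20.8 and 19.7 CPM in control. Tacr1 was among 5 higher of 31 tested receptors for lipids, nucleotides and peptides; that count was 2 to 8 with 1 library left out (2 without AIA 18, AIA 19, AIA 23 or control 14, 3 without control 2, control 7 or control 11, 8 without AIA 13), and 1 without both muscle libraries.

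Of the osteoclast genes 13.3% were called higher, as were 13.3% of the osteoblast genes, against 5.09% of all tested genes. Of 15 osteoclast and resorption genes, 2 were higher and 0 lower, and the higher count was 1 to 4 with 1 library left out (1 without AIA 19, control 2 or control 14, 4 without AIA 5 or control 7). Oscar, a co-stimulatory receptor of osteoclasts and other myeloid cells, had 1.31, 1.63, 1.55, 2.54 and 1.64 CPM in the AIA libraries, against 0.217, 0.236, 0.0594, 0 and 0.226 CPM in the control libraries. All AIA libraries exceeded control at these low levels (3.51 ± 0.54, edgeR adjusted p = 0.00132). Oscar passed the filter on low counts only through libraries of adjuvant-injected rats. Tnfrsf11a, the receptor RANK, was the other gene called higher. Of 15 osteoblast and mineralization genes, 2 were higher (Runx2 and Col1a1), a count of 0 to 2 with 1 library left out (0 without AIA 18, AIA 23, control 11 or control 14, 1 without AIA 19, control 2 or control 7), and 1 was lower. The lower one was Phex, a peptidase of bone-forming cells, at 4.63, 4.16, 3.40, 3.08 and 6.36 CPM in AIA and 9.44, 15.3, 3.71, 13.2 and 15.6 CPM in control, where control 11 lay within the AIA range (-1.40 ± 0.31, edgeR adjusted p = 0.0123). Without both muscle libraries the counts were 1 higher and 0 lower in the osteoclast list and 0 higher and 1 lower in the osteoblast list. Sost, a defining osteocyte gene, was at 0 in all 10 libraries.

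Some cell cycle genes rose, most in the libraries with high matrix genes. Of 30 tested, 19 were higher and 0 lower, with a median log2 fold change of 1.51. The list scores were 0.24, 0.49, 1.92, 1.52 and 1.97 in AIA 5, 13, 18, 19 and 23, against -0.15, 0.068, -0.22, 0.21 and 0.09 in control. Top2a, the topoisomerase of dividing cells, had 2.63, 4.42, 22.3, 13.8 and 25.3 CPM in the AIA libraries, against 1.46, 1.33, 1.10, 2.18 and 1.58 CPM in the control libraries. AIA 5 and 13 were above control by less than AIA 18, 19 and 23 (3.16 ± 0.55, edgeR adjusted p = 0.00296). Cenpf, a kinetochore protein, was at 1.43, 1.09, 10.2, 6.25 and 9.87 CPM in AIA, against 0.497, 0.885, 0.297, 0.757 and 0.735 CPM in control. The count was 12 to 24 with 1 library left out (12 without AIA 23), and 7 without both muscle libraries.

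**Figure D5:**
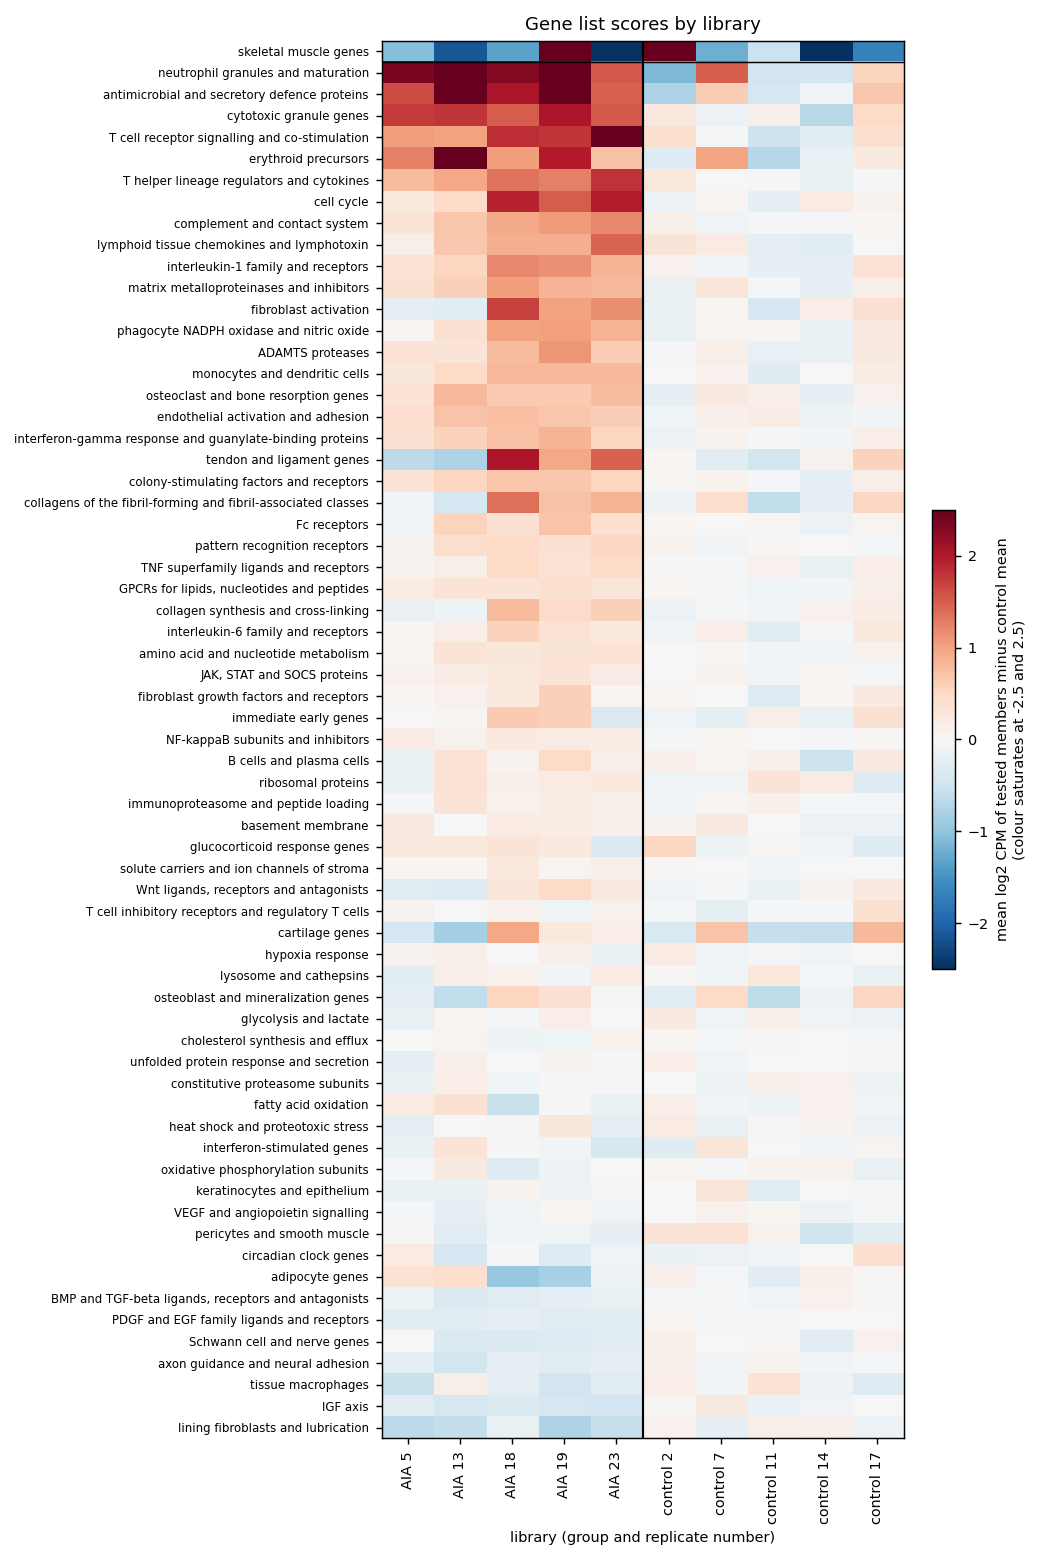
Colour gives the list score, the average of log2 CPM over a list with the control mean set to 0, for each library, AIA on the left and control on the right, with skeletal muscle on top and the other lists ordered by the difference between group means. Muscle is high in AIA 19 and control 2, T cell and cytotoxic lists are high in all 5 AIA libraries, and cell cycle, activation and collagen lists are high in AIA 18, 19 and 23.

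Most lists of housekeeping and stress programmes gave no call or 1 call with edgeR. In ribosomal proteins (32 tested), oxidative phosphorylation (30), glycolysis (25), fatty acid oxidation (24), lysosome and cathepsins (26), heat shock (15) and keratinocyte genes (6) edgeR called 0. The counts at an unadjusted p under 0.05 were 1 higher and 0 lower, 0 higher and 1 lower, 1 higher and 2 lower, 0 higher and 0 lower, 4 higher and 0 lower, 0 higher and 0 lower and 1 higher and 1 lower in the same order. DESeq2 called 2 higher and 0 lower of the lysosome list and limma-voom 4 higher and 0 lower, while limma-voom called 1 higher and 0 lower of the ribosomal and 0 higher and 1 lower of the oxidative phosphorylation list, and neither called any other. With left-out libraries, edgeR called 5 lysosome genes higher without AIA 5 and 1 without AIA 13 or control 11. It called 2 heat shock genes lower without AIA 19, and 2 without both muscle libraries. Without AIA 18, 1 glycolysis gene was lower, and without AIA 5, 1 ribosomal gene was higher. Single genes, none of them called without both muscle libraries or in every run with 1 library left out, passed in the unfolded protein response (Ddit3 lower), the clock (Rora lower), hypoxia (Hif1a higher) and immediate early genes (Fos higher). Cholesterol efflux carriers Abca1 and Abcg1 were higher among 24 sterol genes, with 1 lower, and without both muscle libraries 0 higher and 0 lower. The sterol shares were 8.33% higher and 4.17% lower, against 5.09% and 3.45% of all tested genes. Higher sterol genes were 0 to 3 with 1 library left out (0 without control 2 or control 11, 1 without AIA 18, AIA 23, control 14 or control 17). Of 24 genes of amino acid and nucleotide metabolism, 4 were higher, a count of 2 to 7 with 1 library left out (2 without AIA 19, control 7, control 11, control 14 or control 17, 7 without AIA 5), and 1 without both muscle libraries. Upp1, uridine phosphorylase, had 75.2, 64.7, 106, 85.2 and 73.6 CPM in the AIA libraries, against 44.6, 44.8, 61.7, 39.2 and 45.1 CPM in the control libraries. The AIA and control ranges were separate (0.78 ± 0.14, edgeR adjusted p = 0.00404). Entpd1, the ectonucleotidase CD39, was at 0.95 ± 0.22, with an edgeR adjusted p of 0.0753 without both muscle libraries.

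Angptl4, the target of the antibody named in the series, encodes a secreted inhibitor of lipoprotein lipase. It had 209, 586, 232, 412 and 155 CPM in the AIA libraries, against 167, 251, 149, 263 and 190.2 CPM in the control libraries. AIA 13 and 19 were the highest, the groups overlapped, and the gene was not called (0.64 ± 0.31, edgeR adjusted p = 0.25).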

How the data were processed

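RNA of rat synovium was measured in 15 libraries, 1.3 ug of total RNA each, made with a SMARTER mRNA kit per the labels' protocols. The authors deposited whole-number counts and FPKM per gene symbol. Within each gene, the deposited FPKM was proportional to count over library total within 0.1% for 100% of 194400 values, so only counts were used. For the aligner, the counter and strandedness, nothing was given in the sources used here. Builds named by the submitters' processing notes are GRCm38 and mm10, both of mouse, yet 20949 of 23342 symbols match RefSeq rat symbols (GRCr8), so the annotation is uncertain. Near-identical genes (Kng1 and Kng2, C4a and C4b, Fc gamma receptors) and antisense partners may share reads.

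Counts were fitted with edgeR 4.0.16 in R 4.3.3 (filterByExpr, TMM, group as the only term, 15 libraries), which tested 16046 genes and removed 7296. Benjamini-Hochberg adjustment ran over all tested genes, with calls under 0.05. SE is implied by the F statistic, and log2 CPM uses a prior count of 2. The alternatives used DESeq2 1.42.0, limma 3.58.1 voom with quality weights, glmTreat, other filters and scalings, the muscle share as a covariate, and left-out libraries. On simulated data for this comparison (15917 genes), 35.4% of 1.5-fold, 69.7% of 2-fold and 90.8% of 4-fold changes were called, with 11 calls of unchanged genes. The simulation changed 65, 66 and 65 genes by these folds, far fewer than were called in the data. It also gave each gene the same spread in all groups, so its rates need not hold for the data.

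The members and the 74 gene lists were chosen with earlier results of these data known. Named genes are the 10 of lowest p in each direction (called, average log2 CPM of at least 1, no overlap, full symbol), from each list the called members of largest change, 4 at most (or, with none called, the 2 most highly expressed), and Angptl4. Outside the rule, and chosen after their values were seen, are Mx1, Isg15, Irf1, Prf1, Gzma, Cxcr3, Tbx21, Ccl22, Clec4e, Lcn2, Cfp, Clu, Ackr1, Prg4, Htra4, Fap, Col5a3, Mmp14, Reck, Ntn1, Ntn4, Timp1, Fgf23 and Oscar, as are genes named without values. A few results on withheld items are not reported here. The text prints only some of the genes so allowed, and genes whose call held with any 1 library left out were preferred. Promoters came from RefSeq (GRCr8).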

Additional observations from a re-analysis of the deposited data

Results flagged for a closer look

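A library that stood apart from the other 4 of its group by Dixon's test of the gap to the nearest value was found in 23 of 400 groups of 5 values tested, and chance alone gives about 1 in 20. Skeletal muscle transcripts gave the clearest flags, with a list score of 6.99 in AIA 19 and 5.98 in control 2.

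Among single genes in AIA, Il1rn stood low in AIA 5 at 3.94 CPM, as did Itgb7 at 4.06 CPM. Lck stood high in AIA 23 at 13.8 CPM, and Ltbp2 in the same library at 42.2 CPM. In AIA 19, Cpne7 was low at 26.1 CPM, Ntn4 was low at 29.3 CPM and Ccl22 was high at 0.286 CPM. In control, the high values were those of Mx1 (45.7 CPM) and Col18a1 (263.0 CPM) in control 7 and of Slc39a14 (64.3 CPM) in control 2. Fgf23 was at 0.0283 CPM in control 17 and at 0 in the other control libraries. Low values in control were those of Grem1 in control 7 (2.68 CPM), and of Adam12 (4.43 CPM) and Lamb1 (106.0 CPM) in control 11.

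Of the list scores in AIA, axon guidance and neural adhesion was lowest in AIA 13 (-0.459), glucocorticoid response genes in AIA 23 (-0.362), and amino acid and nucleotide metabolism in AIA 5 (0.0685), while PDGF and EGF family ligands and receptors was highest in AIA 18 (-0.215). In control, the PDGF and EGF list was at 0.0767 in control 2, the circadian clock list at 0.425 in control 17, and B cells and plasma cells at -0.531 in control 14.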

How the results depend on the processing

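With the 10 libraries alone 532 genes were higher and 375 lower. Leaving out 1 library gave 522 (without AIA 18) to 1147 (without AIA 5) higher and 369 (without control 14) to 796 (without AIA 5) lower. Without AIA 19 and control 2, 334 and 238 were called, at an adjusted p under 0.01, 295 and 182, and by glmTreat at 1.5-fold, 194 and 58. DESeq2 called 1140 and 738, limma-voom 1186 and 857. Called in all 18 alternatives with a test per gene were 212 and 173 genes. Of 131 printed genes that were called, 96 were called in all of those. The log2 fold changes of Mx1 and Isg15, not called, ran from -0.63 and -0.39 (without AIA 13) to 0.34 and 0.14 (without control 7), and were above 0 also without AIA 5 (0.040 and 0.060) or AIA 23 (0.034 and 0.063). The causes were not tested. No paired analysis was possible because the AIA and control libraries share no replicate number. Depth limits low genes such as Cxcr3, which was at 0.0295 to 0.124 CPM in control.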
